A study of Rattus norvegicus with 7 samples.

Results

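The airway secretory genes of the rat lung were followed on 7 microarrays. The set comprised 9 named genes, namely the secretoglobins Scgb1a1, Scgb3a1 and Scgb3a2, the BPI-fold proteins Bpifa1 and Bpifb1, the cytochrome P450 Cyp2f4, Lypd2, the immunoglobulin receptor Pigr and the mucin Muc1. A gene was represented by every probe set that the platform annotation assigned to its symbol alone. This gave 8 genes with 1 probe set each, out of 14217 genes with a single symbol. Scgb3a2 had no such probe set and was not analysed here. All 8 probe sets lay above the filter on dim probe sets, a mean log2 value of 3.64.

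The animals were Dahl Salt Sensitive rats of 250 to 350 g. The HSU group (3 arrays, replicates 1b, 2b and 3b) was kept in hypoxia, at an inspired oxygen fraction of about 9.5%, and received SU-5416, an inhibitor of VEGF receptors. The HSU_Sor group (4 arrays, replicates 1 to 4) had the same hypoxia and SU-5416 and was given sorafenib in addition, which blocks RAF kinases and several receptor tyrosine kinases. Every rat thus carried hypoxia and SU-5416, which together serve as a rat model of pulmonary hypertension, and the comparison asked what sorafenib added. Lungs were taken at 3.5 weeks, after saline perfusion of the vessels, and RNA came from the whole right lung, cut at its main bronchus. In such tissue RNA, fewer cells of a type and less RNA per cell cannot be told apart.

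The conducting airways are lined by ciliated cells and by secretory cells. In rodents most secretory cells are club cells, which release secretoglobins and hold the cytochrome P450 enzymes that metabolise inhaled compounds. Goblet cells release gel-forming mucins, and proteins of the BPI-fold family are secreted mainly by the epithelium of the nose, trachea and large airways, where they act in defence against bacteria. Most of these transcripts are scarce in alveolar and vascular cells and are often read as a sign of how much airway a lung piece holds.

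The promoters of 7 of the 8 measured genes were in the RefSeq table of build GRCr8, all but Lypd2. Of these, 4 are shown: Scgb1a1, whose level was nearly the same on all arrays, and Scgb3a1, Bpifa1 and Bpifb1, whose values spread more widely than those of the other genes of the set. Each run is the 250 bases before the annotated start, 5′ to 3′ on the gene's strand. Capitals mark words of 4 kinds of sites. A core of NKX2-1 sites is CTCAAG. The usual FOXA word is TGTTTAC. A further FOXA word searched was TATTTAC, which the window of Bpifa1 held and that of Scgb1a1 held on the opposite strand. Another was TGTTTGC, which Scgb3a1 and Bpifb1 held on the opposite strand. The window of Scgb1a1 held the last one searched, TATTTGC. C/EBP factors share the half-site ATTGC, and the TATA box is TATAAA. The first 3 kinds were searched on both strands and TATAAA on the gene's strand alone, and the words were chosen after the sequences were seen.
Scgb1a1 (chr1:215409687-215409936, minus strand): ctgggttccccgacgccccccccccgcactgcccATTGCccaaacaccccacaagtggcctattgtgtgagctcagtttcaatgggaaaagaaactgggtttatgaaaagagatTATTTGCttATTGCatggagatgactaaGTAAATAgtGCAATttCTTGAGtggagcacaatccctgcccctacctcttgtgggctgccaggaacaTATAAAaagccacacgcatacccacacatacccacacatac
Scgb3a1 (chr10:34468916-34469165, plus strand): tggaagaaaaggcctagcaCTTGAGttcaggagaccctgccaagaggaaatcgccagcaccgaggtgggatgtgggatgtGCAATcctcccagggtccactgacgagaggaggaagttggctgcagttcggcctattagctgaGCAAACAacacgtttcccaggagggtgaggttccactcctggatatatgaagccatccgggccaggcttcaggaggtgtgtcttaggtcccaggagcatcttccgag
Bpifa1 (chr3:163087715-163087964, plus strand): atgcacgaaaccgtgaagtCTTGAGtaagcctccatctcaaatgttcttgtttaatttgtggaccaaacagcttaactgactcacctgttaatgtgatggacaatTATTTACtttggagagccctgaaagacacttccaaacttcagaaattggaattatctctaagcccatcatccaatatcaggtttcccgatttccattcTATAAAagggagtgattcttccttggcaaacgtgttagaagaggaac
Bpifb1 (chr3:163132901-163133150, plus strand): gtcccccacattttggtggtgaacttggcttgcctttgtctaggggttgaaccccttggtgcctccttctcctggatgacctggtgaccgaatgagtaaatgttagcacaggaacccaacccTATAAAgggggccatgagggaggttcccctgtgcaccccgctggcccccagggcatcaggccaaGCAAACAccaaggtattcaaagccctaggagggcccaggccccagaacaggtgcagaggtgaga

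The window of Scgb1a1 held 1 NKX2-1 word, 2 FOXA words, 3 C/EBP words and 1 TATA box. Its last FOXA word lies just before a C/EBP word, and the NKX2-1 word follows within the same stretch. The NKX2-1 word was in 3 of the 7 promoters (Scgb1a1, Scgb3a1 and Bpifa1), against 13.3% of 33469 rat promoter windows of the same length. A FOXA word was in 4 of 7, against 12.2%, a C/EBP word in 3 of 7, against 23.2%, and TATAAA in 4 of 7, against 8.06%. The NKX2-1 word was thus in the window of Scgb1a1, with nearly level values, and in those of Scgb3a1 and Bpifa1, whose values spread widely. It was absent from that of Bpifb1, whose values also spread widely. The windows of Pigr, with nearly level values, and of Cyp2f4 and Muc1 also lacked it. A link between words and values was not tested. These matches describe letters and not bound sites.

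Before the results, arrays that stood apart have to be named. HSU 1b and 2b lay at least 3 log2 units above the other 5 arrays at 6 probe sets, and 5 of these belong to MHC (RT1) genes. One probe set of RT1-Bb read 12.57 on both and 3.55 to 3.72 elsewhere. The other probe set of RT1-Bb went the opposite way, with 13.17 and 13.08 on HSU 1b and 2b and 13.43 to 14.06 elsewhere. Myoglobin (Mb), a heart and skeletal muscle gene, read 6.88 on HSU 1b and 5.59 on HSU 2b, and 2.57 to 2.64 on the other 5 arrays. Beta-globin (Hbb) was lower on HSU_Sor 3 and 4 (12.11 and 11.59) than on the other arrays (14.23 to 14.75). It was among 15 probe sets at least 1 log2 unit lower on both than on each of the other 5 arrays, which also included the complement and macrophage genes C1qa, C1qb and Stab1, the matrix gene Tnc and the red cell genes Alas2 and Hba-a3. The letter b stands in every HSU label and in no HSU_Sor label, so a batch marked by it and the treatment cannot be told apart. Array medians lay between 3.59 and 3.68 on the log2 scale, and the small number of arrays limits precision.

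Sorafenib-treated lungs read lower for 5 of the 8 secretory genes, by between 1.44-fold and 12.8-fold in the mean, while Scgb1a1, Pigr and Muc1 differed by less than 0.1 log2 units. No gene of the set passed the adjusted threshold. Bpifa1 had the widest gap, Lypd2 the gap that was clearest against the spread between arrays, and Scgb1a1, the hallmark of club cells, had equal means to 2 decimals. Over all 15521 probe sets tested with limma, 0 (0.00%) had an adjusted p below 0.05 and 931 (6.00%) an unadjusted p below 0.05.

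**Figure D1:**
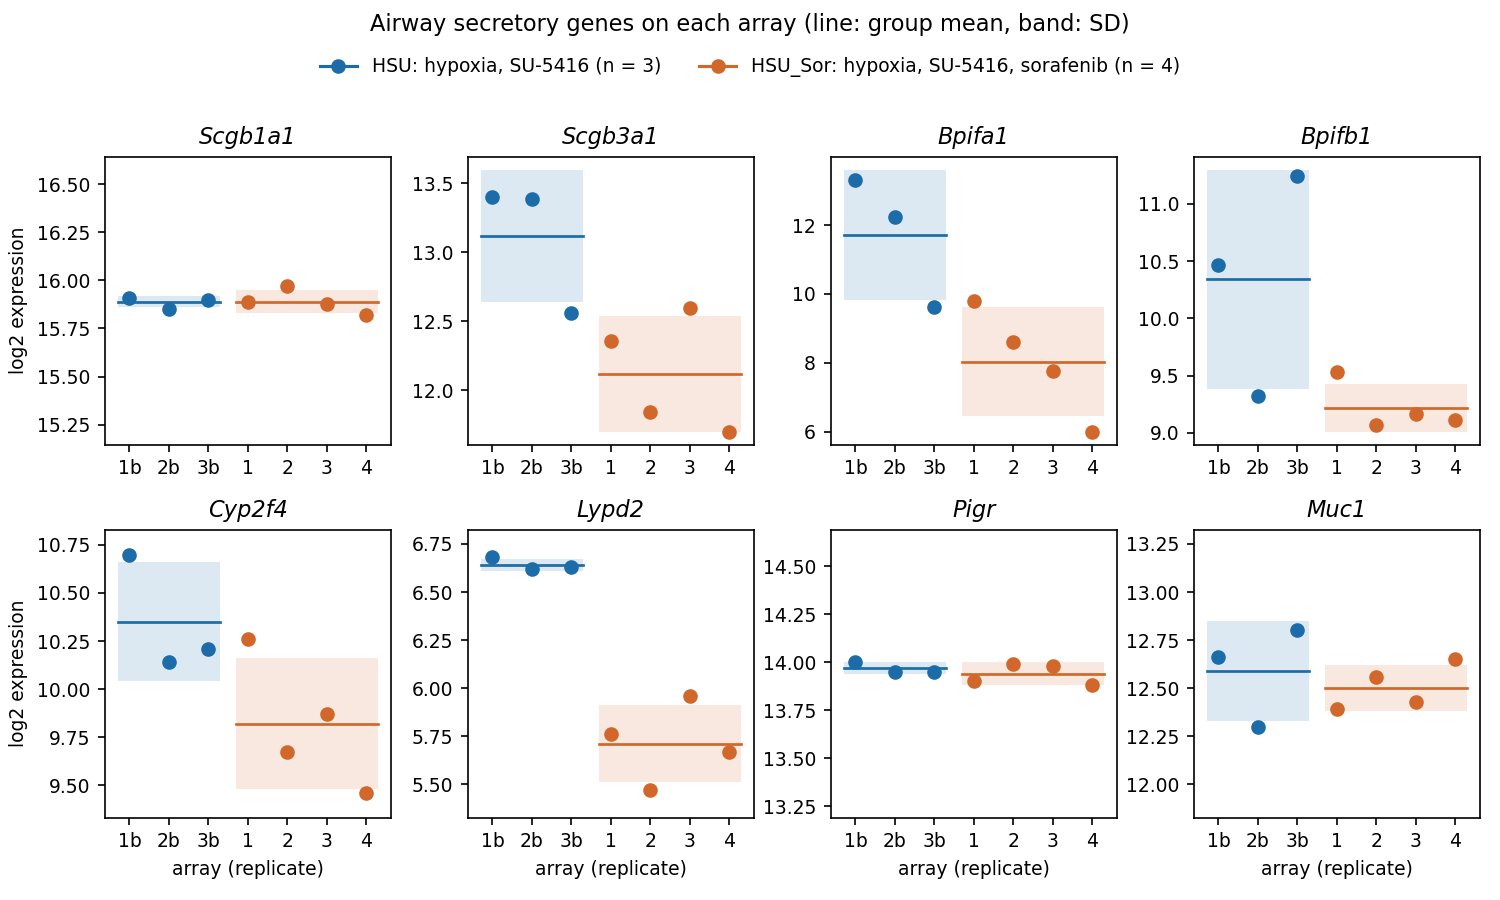
Log2 expression of the 8 airway secretory genes (vertical axes, each with its own range) on the 7 arrays (horizontal axis, by replicate). Points are single arrays, lines group means and bands 1 SD; Bpifa1 runs from 13.30 to 6.00, while Scgb1a1 and Pigr stay within 0.16 and 0.12 log2 units.

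Scgb1a1 encodes the club cell secretory protein, one of the most abundant secreted proteins of the distal airways. It read 15.91, 15.85 and 15.90 on the HSU arrays (1b, 2b, 3b) and 15.89, 15.97, 15.88 and 15.82 on HSU_Sor 1 to 4. The groups overlapped, and all 7 arrays lay within 1.12-fold. The log2 difference was 0.00 ± 0.05 (SE), with a 95% interval from -0.12 to 0.13 (limma, adjusted p = 0.992). Its probe set had the third highest mean of all 31042, close to the highest value on any array (16.14). Signal at the top of an array's range can be compressed, and the part of this in the narrow spread was not tested.

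Scgb3a1 is a second secretoglobin, made mostly in larger airways. Its values were 13.40, 13.39 and 12.56 in HSU and 12.36, 11.84, 12.60 and 11.70 in HSU_Sor. HSU 1b and 2b were the 2 highest arrays, and HSU 3b lay just below HSU_Sor 3. The means were 13.12 ± 0.48 (SD, n = 3) and 12.12 ± 0.42 (SD, n = 4), a difference of -0.99 ± 0.30 (SE) on the log2 scale, or 1.99-fold (limma, adjusted p = 0.756). Without HSU 1b and 2b together, with HSU 3b as the only HSU array, the difference was -0.44. HSU 1b and 2b also carried the MHC and myoglobin signals. The part of those signals in the result was not tested.

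Bpifa1 encodes SPLUNC1, which coats the airway surface, binds bacterial lipopolysaccharide and regulates the airway's sodium channel. It read 13.30, 12.22 and 9.61 on the HSU arrays. On the HSU_Sor arrays it read 9.78, 8.60, 7.75 and 6.00. The span of 7.31 log2 units, 158-fold, covered high values on HSU 1b and 2b, middling ones on HSU 3b and HSU_Sor 1, and the lowest on HSU_Sor 4. HSU_Sor 1 was above HSU 3b, so the groups overlapped. The within-group SD of 1.72 exceeded that of 99.9% of probe sets tested, for which the median was 0.147.

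The difference in Bpifa1 was -3.68 ± 1.16 (SE), 12.8-fold, with a 95% interval from -6.46 to -0.89 (limma, adjusted p = 0.756). Only 5 of the 15521 probe sets had a larger absolute difference. It was -1.58 without HSU 1b and 2b, with HSU 3b as the only HSU array, and ran from -4.73 to -1.58 over the 20 alternatives. Without HSU_Sor 3 and 4, the arrays low in the 15 probe sets that include Hbb and C1qa, it was -2.52 ± 1.23 (SE). Myoglobin was high on the 2 arrays highest in Bpifa1, and those 15 probe sets were low on the 2 lowest; the part of either in the result was not tested.

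Bpifb1 (LPLUNC1), a larger relative made by goblet and gland cells, lies on the same chromosome as Bpifa1 with 2 annotated genes between them. It read 10.47, 9.32 and 11.24 in HSU and 9.53, 9.07, 9.16 and 9.11 in HSU_Sor. It was highest on HSU 3b, where Bpifa1 was lowest within HSU, so the neighbours did not share an order of arrays. The difference was -1.12 ± 0.43 (SE), 2.18-fold (limma, adjusted p = 0.812). Without HSU replicate 3b it was -0.68, and without HSU 1b and 2b, with HSU 3b as the only HSU array, it was -2.02 ± 0.21 (SE; limma, adjusted p = 0.139). Bpifa5, 1 of the 2 genes between them and picked after its values were seen, read 7.50, 7.22 and 7.39 in HSU and 7.40, 6.84, 6.60 and 6.38 in HSU_Sor, a difference of -0.56 ± 0.24 (SE).

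Cyp2f4, the club cell cytochrome P450 that activates naphthalene, read 10.70, 10.14 and 10.21 in HSU. In HSU_Sor it read 10.26, 9.67, 9.87 and 9.46. HSU_Sor 1 lay among the HSU arrays and the other 3 below all of them. The difference was -0.53 ± 0.22 (SE), 1.44-fold (limma, adjusted p = 0.834), and -0.36 without HSU replicate 1b, the highest array.

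Lypd2, a small cell-surface protein of the LY6 family, was the only gene of the set with separate groups. It read 6.68, 6.62 and 6.63 in HSU and 5.76, 5.47, 5.96 and 5.67 in HSU_Sor, where the lowest HSU array was above the highest HSU_Sor array. Such separation, with HSU_Sor lower, was seen in 3.25% of the probe sets tested. The difference was -0.93 ± 0.11 (SE), 1.90-fold, with a 95% interval from -1.20 to -0.66 (limma, adjusted p = 0.166). Only 10 of the 15521 probe sets had a smaller p. The difference was -0.92 without HSU 1b and 2b, with HSU 3b as the only HSU array. Over 19 alternatives it lay between -1.03 and -0.85 (limma, adjusted p from 0.082 to 0.616).

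Pigr carries polymeric IgA through the epithelium into the airway lumen. It read 14.00, 13.95 and 13.95 in HSU and 13.90, 13.99, 13.98 and 13.88 in HSU_Sor. The difference was -0.03 ± 0.05 (SE), with a 95% interval from -0.15 to 0.09 (limma, adjusted p = 0.925). Jchain, which joins the IgA units that Pigr carries and is made by plasma cells, read 8.77, 8.65 and 9.69 in HSU and 10.20, 9.47, 10.43 and 9.91 in HSU_Sor, a difference of 0.97 ± 0.33 (SE; limma, adjusted p = 0.812). The receptor thus stayed within 0.12 log2 units, on arrays where Jchain spanned 3.42-fold.

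Muc1, a mucin anchored in the cell membrane that alveolar type II cells also make, read 12.66, 12.30 and 12.80 in HSU and 12.39, 12.56, 12.43 and 12.65 in HSU_Sor. The groups overlapped throughout. The difference was -0.08 ± 0.13 (SE), with a 95% interval from -0.40 to 0.23 (limma, adjusted p = 0.918).

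As a group, 7 of the 8 genes had a lower mean in HSU_Sor, where 54.0% of all probe sets did, and 5 of 8 were lower by at least 1.4-fold, where 2.62% were. Of the 8, 4 (Scgb3a1, Bpifa1, Bpifb1 and Lypd2) were lower at an unadjusted p below 0.05, where 3.67% of probe sets were, and 0 were higher at that p, where 2.33% were. At an unadjusted p below 0.01 with a fold of at least 1.4, Lypd2 alone was called, against 0.844% of probe sets. The median log2 difference was -0.73 over the 8 genes and -0.01 over all probe sets. The set was chosen with earlier results of these data known, so these contrasts with all probe sets may partly reflect that choice. A lower mean in most genes of a list was also seen elsewhere. It was seen in 7 of 8 alveolar type II genes (median -0.09) and in 6 of 6 smooth muscle genes (median -0.78, but only -0.04 for Acta2).

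**Figure D2:**
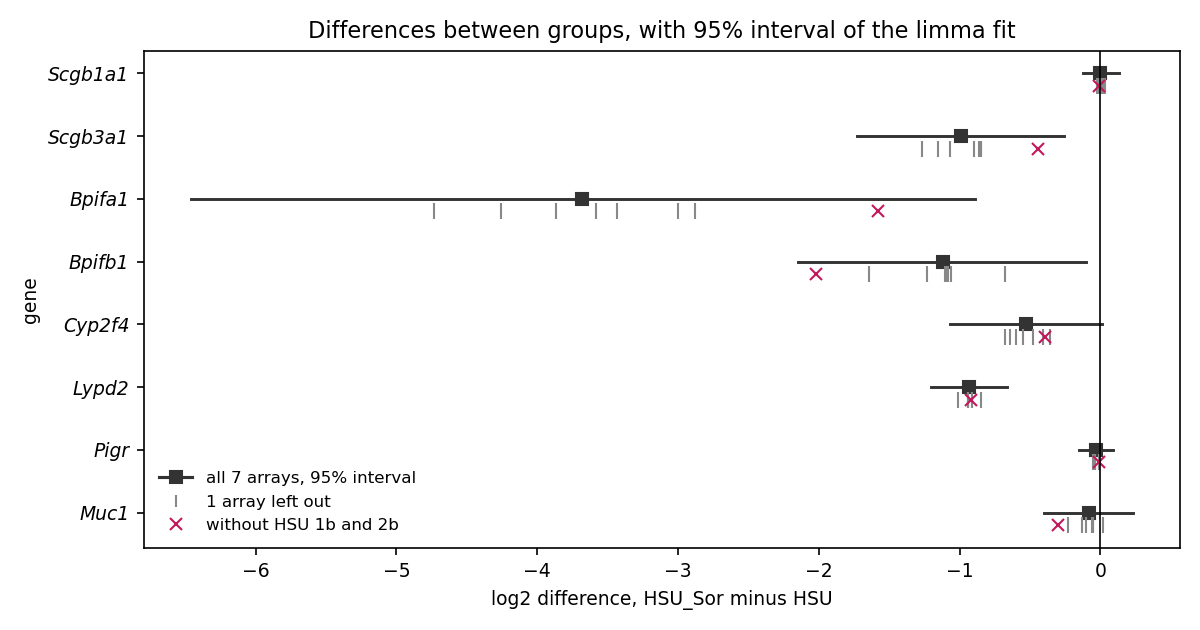
Log2 difference between groups (horizontal axis, HSU_Sor minus HSU) for each gene (vertical axis). Squares and bars are the limma estimate and its 95% interval from all 7 arrays, grey ticks the estimates with 1 array left out, and crosses those without HSU 1b and 2b; the crosses of Bpifa1 and Scgb3a1 sit nearer to 0 (-1.58 and -0.44), that of Bpifb1 farther away (-2.02).

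Array by array, HSU 1b was above the 7-array mean for 8 of 8 genes and the highest array for 5 of them. HSU 3b was above it for 7 of 8. HSU 2b, with 4 above and 4 below, was mixed: high for Bpifa1, Scgb3a1 and Lypd2, low for Bpifb1 and Muc1. On HSU_Sor 4 the reading was below the mean for 7 of 8 genes and the lowest of all arrays for 5.

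The mean deviation of the 8 genes from their 7-array means was 0.84, 0.42 and 0.31 on the HSU arrays in the same order. It was -0.06, -0.40, -0.35 and -0.76 on HSU_Sor 1 to 4. The HSU arrays were all above the HSU_Sor arrays, with a gap of -0.92 between group means. Bpifa1 weighs heavily here: over the other 7 genes the gap was -0.53, with 0.43, 0.11 and 0.36 in HSU and -0.10, -0.31, -0.13 and -0.36 in HSU_Sor.

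**Figure D3:**
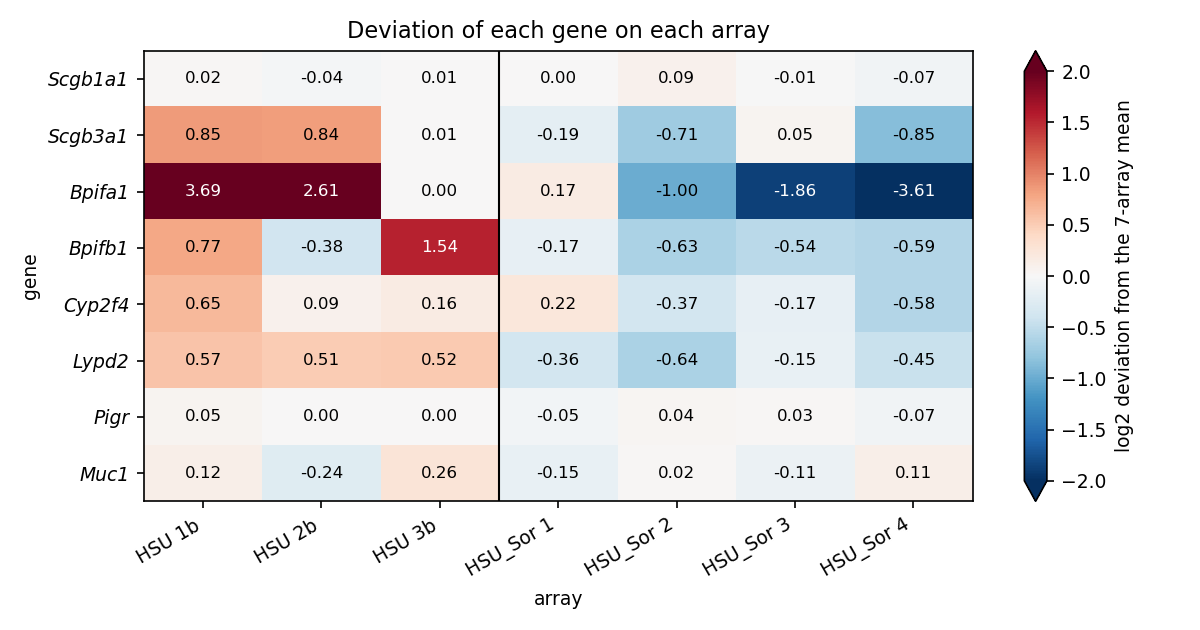
Log2 deviation of each gene (rows) from its mean over the 7 arrays (columns), printed in each cell; colour saturates at 2 log2 units either way. Bpifa1 runs from 3.69 on HSU 1b to -3.61 on HSU_Sor 4, Lypd2 changes sign exactly at the group border, and the rows of Scgb1a1 and Pigr are nearly white.

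Other cell types of the airway were read as a further sign of airway content that did not use these genes. Ciliated cell genes had a mean deviation of 0.08, 0.03 and 0.01 in HSU and -0.05, -0.22, 0.21 and -0.05 in HSU_Sor, over the 10 of 24 listed genes that were measured above the filter. Their median log2 difference was -0.08, and 0 of 10 had an unadjusted p below 0.05, where 6.00% of all probe sets tested did. Foxj1, the transcription factor that specifies ciliated cells, read 9.21 to 9.28 in HSU and 9.19 to 9.45 in HSU_Sor. With arrays centred on the ciliated genes, an alternative added after the values were seen, Bpifa1 differed by -3.61, Scgb3a1 by -0.93, Bpifb1 by -1.06, Cyp2f4 by -0.46 and Lypd2 by -0.86. Centring takes 1 offset from each array, so it moves the difference of every gene by the same small amount. The 5 values are therefore no separate checks, and the part of airway content in the differences was not tested.

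A further list of club and airway secretory genes had a median difference of -0.02 over the 15 of 25 genes measured above the filter. Of these, 2 were lower and 1 higher at an unadjusted p below 0.05, and 0 passed the adjusted threshold. Over all probe sets tested, 3.67% were lower and 2.33% higher at that p. Nupr1, a stress-induced chromatin protein, differed by -0.49 ± 0.10 (SE) with separate groups, as 3.25% of all probe sets had with HSU_Sor lower. Haptoglobin (Hp) differed by -0.55 ± 0.21 and the lung P450 Cyp4b1 by 0.20 ± 0.08. Of the 15, 9 had a lower mean in HSU_Sor and 6 a higher one, and the largest drop was that of Lcn2, -0.61 ± 0.37 (SE). The middle of this longer list was thus near 0, unlike that of the 8 genes (median -0.73), although single genes in it were lower.

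Goblet and mucous cell genes were few above the filter (4 of 14 listed). Of these, 3 were lower at an unadjusted p below 0.05, where 3.67% of all probe sets tested were, and 0 passed the adjusted threshold. Muc5b, the main gel-forming mucin of rodent airways, read 10.51, 10.63 and 10.36 in HSU and 8.88, 9.08, 10.56 and 9.02 in HSU_Sor. HSU_Sor 3 stayed at the HSU level, and the difference was -1.12 ± 0.42 (SE; limma, adjusted p = 0.812). Agr2, a disulfide isomerase needed for mucin folding, differed by -0.60 ± 0.23 with separate groups, as 3.25% of all probe sets had with HSU_Sor lower. The anion exchanger Slc26a4 differed by -0.38 ± 0.14. The fourth, Dmbt1, a secreted scavenger receptor, had a higher mean in HSU_Sor, with 9.14, 7.18 and 9.54 in HSU and 9.14, 9.14, 8.82 and 9.53 in HSU_Sor, a difference of 0.54 ± 0.56 (SE; limma, adjusted p = 0.897). Muc5ac, the mucin of induced goblet cells, was at the floor on all arrays (2.13 to 2.18).

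Transcription factors of the airway epithelium had a median difference of 0.10 over 7 measured genes. Of the 7, 2 were higher and 0 lower at an unadjusted p below 0.05, against 2.33% and 3.67% of all probe sets tested. Foxa2, which binds FOXA words such as those in the promoters above, read 10.16, 10.17 and 10.54 in HSU and 10.54, 10.84, 10.86 and 10.93 in HSU_Sor. The difference was 0.51 ± 0.13 (SE; limma, adjusted p = 0.664). Of the genes with a FOXA word, Bpifa1, Scgb3a1 and Bpifb1 had differences of the opposite sign, and Scgb1a1 had one of 0.00. A link between Foxa2 and these genes was not tested. Nkx2-1, the lung epithelial homeobox factor, differed by 0.34 ± 0.12, and Cebpd, a C/EBP factor, by -0.34 ± 0.18.

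Alveolar type II genes had a median difference of -0.09, with 7 of 8 lower. At an unadjusted p below 0.05 there were 0 of 8, against 6.00% of all probe sets tested. Their mean deviation lay between -0.08 and 0.11 on all arrays. The surfactant gene Sftpc read 15.46 to 15.49 in HSU and 15.39 to 15.54 in HSU_Sor. Alveolar type I genes had a median of 0.04 over 7, in which Gprc5a (0.29 ± 0.06, SE) and Aqp5 (0.29 ± 0.07) were higher with separate groups, as were 2.01% of all probe sets tested. Of the 8 secretory genes, 0 were. General epithelial genes had a median of 0.08 over 10, with Krt8 at 0.24 ± 0.09. Cldn7 read 6.47 on HSU 2b and 9.42 to 9.78 on the other 6 arrays, so HSU 2b stood apart here as well.

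Basal cell genes (7 measured) and airway cartilage genes (7 measured), both features of the largest airways, had 0 members above the filter. Krt5, the basal keratin, read 2.32 to 2.40. No level of large airway tissue could be read from these lists, and the amount of main bronchus in each piece was not tested. Smooth muscle genes, which airways share with vessels, differed by a median of -0.78 over 6 genes, led by Des (-1.10 ± 0.12, SE), Actg2 (-1.45 ± 0.16) and Tagln (-0.72 ± 0.15). Of the 6, 4 had separate groups, lower in HSU_Sor, as had 3.25% of all probe sets tested. The groups overlapped for Myh11 (-0.27 ± 0.18, SE) and Acta2 (-0.04 ± 0.14), so the drop was not shared evenly by the list. Their mean deviation was 0.37, 0.51 and 0.37 in HSU and -0.26, -0.67, -0.06 and -0.28 in HSU_Sor; their part in the secretory result was not tested.

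**Figure D4:**
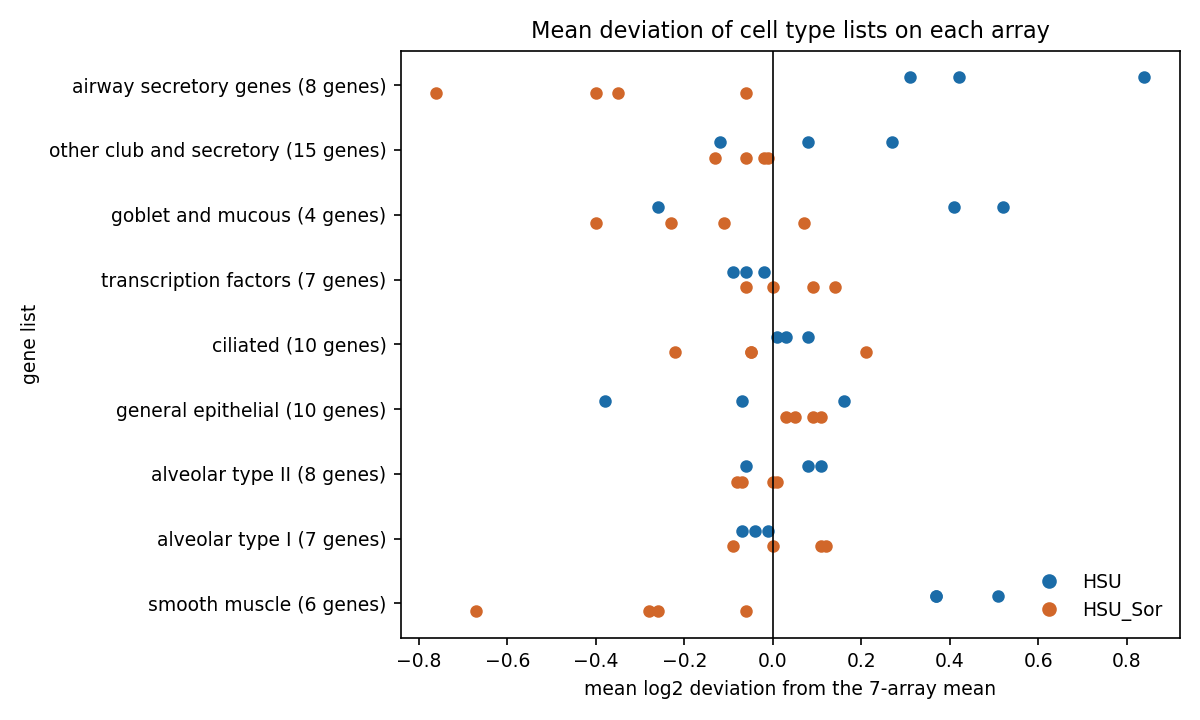
Mean log2 deviation from the 7-array mean (horizontal axis) for each gene list (vertical axis), with 1 point per array. The secretory genes and smooth muscle genes show HSU arrays above HSU_Sor arrays (0.31 to 0.84 against -0.76 to -0.06 for the secretory genes), while ciliated and alveolar lists stay within 0.22 log2 units of 0.

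The genes outside the set whose pattern was most like the mean of the 8, out of 9291 genes searched, were Dynlt1, a dynein light chain (Pearson's r of 0.97 over 7 arrays), Bola2 (0.96), Eif1ax (0.95), the MHC gene RT1-CE12 (0.94), the sterol enzyme Hsd17b7 (0.94) and Calu (0.93). All 6 had separate groups, lower in HSU_Sor, as had 3.25% of all probe sets tested. The mean they were matched to itself separates the groups, so this follows largely from the search. The differences of the 6 genes ran from -0.10 for Eif1ax to -0.99 for Hsd17b7. These values are a description of 7 arrays searched over many genes, and none of the 6 was in a cell type list used here.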

How the data were processed

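Lung RNA was measured on Affymetrix arrays in 7 samples. The deposited table holds normalized log2 values for each probe set. RMA and GCRMA stand in the submitters' processing notes, without a version, and the method behind the deposited log2 values is not given in sources seen here. Dim probe sets are compressed at a floor, which shrinks their differences.

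The 57 control probe sets were left out. Of the other 31042, 20826 had 1 symbol, 436 several and 9780 none. HSU_Sor minus HSU was fitted with limma 3.58.1 (lmFit, eBayes) in R 4.3.3, two-sided, without covariates, on the 15521 probe sets with a mean above the median (3.64), with Benjamini-Hochberg adjustment over all of them and a threshold of 0.05. Genes under the filter came from the same fit over 31042 probe sets. A list used 1 probe set per gene, the one with the highest mean, and its deviations cover genes above the filter. The script was tested on simulated data. Nothing in the labels says beyond the stated group sizes that each array came from its own rat, so p-values measure the spread between these samples. With 3 against 4 arrays, an exact permutation test cannot go below p = 0.0571, and none was run.

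Named were all members, up to 3 genes per list with the smallest unadjusted p, 8 fixed marker genes, and the 6 genes most like the mean of the set by Pearson correlation. Genes named outside this rule are RT1-Bb, Mb, Dmbt1, Lcn2, Myh11, Acta2 and the further Bpif and Scgb genes. Hbb and others low on the same arrays as Hbb were also named outside it. The members and lists were chosen with earlier results of these data known. Alternatives covered the filter, the normalization, the variance model, the choice of probe sets, a replicate block and each array left out; after the data were seen, 2 pairs of arrays left out, centring on ciliated genes or Scgb1a1, and the mean without Bpifa1 were added. The series description names SAM, with its delta and a minimum fold of 1.4 as the only settings; limma was used, and the fold kept as a second rule.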

Additional observations from a re-analysis of the deposited data

Results flagged for a closer look

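Among the HSU_Sor arrays of 54 genes named here or eligible to be named, 8 had 1 array far from the other 3, where chance flags about 1 in 20. None was a gene of the secretory set. Muc5b was far higher on HSU_Sor 3 (10.56) and Foxj1 on HSU_Sor 1 (9.45). On HSU_Sor 2, Agr2 (9.50), the ciliated gene Lrrc23 (9.26) and Actg2 (11.52) were lowest and Aqp5 (13.30) highest. Sftpb was lowest on HSU_Sor 1, though only slightly (14.70, against 14.73 on each of the other HSU_Sor arrays). The cartilage gene Matn1, at the floor, was lowest on HSU_Sor 3 (2.21).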

How the results depend on the processing

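No secretory gene passed the adjusted threshold in any of the alternatives run, and Scgb3a1, Bpifa1, Bpifb1, Cyp2f4 and Lypd2 were lower in HSU_Sor in all of them. Lypd2 could not be fitted with the filter at the 75th percentile, which leaves it out. The signs of the 3 genes near 0 turned: Scgb1a1 to 0.00 (just below 0) with quantile normalization, -0.01 without HSU 1b and 2b and between -0.02 and 0.03 with 1 array left out; Pigr to 0.03 with quantile normalization and 0.04 with arrays centred on ciliated genes; Muc1 to 0.02 without HSU replicate 3b (with 1 array left out, from -0.23 to 0.02). The mean deviation of the set differed by -0.53 without Bpifa1. Over all probe sets, 6 passed with the filter at the 75th percentile, 0 to 6 with 1 array left out (6 without HSU replicate 3b) and 10 without HSU 1b and 2b, 9 of them lower. By the second rule the count of 131 was 87 with that filter, 84 with the mean of probe sets per gene, 215 without HSU_Sor 3 and 4 and 262 without HSU 1b and 2b; the cause was not tested. Without HSU 1b and 2b the lone HSU array is assumed to vary like the others.

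The replicate block on the number without its letter gave 0 probe sets past the adjusted threshold, 147 by the second rule, and a mean deviation of -0.80. HSU_Sor 4 shares its number with no HSU array, so with the block it adds nothing to the difference between groups. With HSU_Sor replicate 4 left out and no block, the mean deviation likewise differed by -0.80. Deviations of same-numbered arrays correlated at -0.059, 0.179 and 0.144, and 3 of 6 arrays correlated best with their own number. With so few arrays this cannot tell whether the numbers pair them. With the block the SE was 0.43 for Bpifa1 and 0.06 for Cyp2f4, against 1.16 and 0.22 on all arrays without it. With HSU_Sor replicate 4 left out and no block, the SE was 1.07 and 0.22. Against all arrays, the SE with the block was also smaller for Bpifb1 (0.40 against 0.43). For Scgb3a1 it was larger (0.35 against 0.30), as it was for Scgb1a1, Lypd2, Pigr and Muc1.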

Other observations

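The other secretoglobin and BPI-fold genes with a probe set of their own, looked at after the values were seen, were at the floor apart from Bpifa5. Bpifa2, Bpifa2f, Bpifb2, Bpifb4 and Bpifb6, made in salivary gland, nose or mouth in large part, had means of 2.45, 2.05, 2.38, 2.24 and 2.48. Scgb1c1 was at 2.82 and Scgb1d2 at 2.90.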
